A study of Mus musculus with 10 samples.

Results

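The genes of cholesterol and fatty acid synthesis were examined in bulk mRNA sequencing of mouse 4T1 mammary tumors. The 32 genes were taken by name from a table of 21959 genes and fall into a sterol group of 20 (18 enzymes of the path from acetyl-CoA to cholesterol, plus Insig1 and Stard4), a fatty acid group of 7, the 3 regulators Srebf1, Srebf2 and Scap, and the 2 sterol exporters Abca1 and Abcg1. The exercise group (E) was 5 female BALB/c mice that ran voluntarily, with no limit on speed or distance, and the non-exercise group (NE) was 5 such mice under normal husbandry. The mice were 5-6 weeks old when obtained. All 10 mice carried tumors of 4T1, a single established mouse mammary carcinoma line, injected under the skin of the abdomen, and tumors were collected after 21 days. Each tumor gave 1 library, so p-values measure the spread between tumors.

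Cells make cholesterol from acetyl-CoA by way of mevalonate, squalene and lanosterol, and make saturated and unsaturated fatty acids from the same precursor. When membrane sterol is low, the escort protein Scap carries the membrane-bound factors SREBP1 and SREBP2, encoded by Srebf1 and Srebf2, to the Golgi, where proteases release their active parts. SREBP2 acts mainly on sterol genes and SREBP1 mainly on fatty acid genes, Insig1 retains Scap in the endoplasmic reticulum when sterols are abundant, and the LXR receptors raise Abca1 and Abcg1 when sterols are in excess. Growing tumor cells need both products for membranes.

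Each E tumor had 15045613 to 20646763 counted reads and each NE tumor 18706032 to 23092251, and 29 of the 32 genes had at least 250 reads in every tumor. The other 3 were thin: Fdps had 31 to 88 reads, Tm7sf2 46 to 80 and Fads2 40 to 204. Levels are given as CPM, reads scaled to a common library size with TMM factors, for comparing tumors, and as FPKM, which also divides by gene length, for comparing genes. The tumors were whole pieces of tissue, in which fewer cells of a type and less RNA per cell cannot be told apart, and their content of other tissue varied widely. The summed level of 12 skeletal muscle markers was 323 to 4326 CPM in E and 6.67 to 30950.0 CPM in NE, with the highest value in NE4. The summed level of 11 adipocyte markers was 30.6 to 176 CPM in E and 5.39 to 1502 CPM in NE, again highest in NE4. Car3, which muscle also expresses, made up 1385 CPM of the NE4 sum, and the other 10 markers summed to 7.23 to 30.6 CPM in E and 5.05 to 116 CPM in NE, still highest in NE4, while Adipoq, Plin1 and Cidec were at 0 in NE1. NE5 alone was high for keratinocyte markers, at 63.4 CPM against 3.79 to 6.02 CPM in the other tumors, and NE1 was lowest for macrophage and fibroblast markers. Of the 8 epithelial markers, Epcam reached at most 3.14 CPM, Krt18 2.20 CPM, Krt8 1.24 CPM and Krt7 0.926 CPM. Krt19 (8.42 to 23.7 CPM) and Cdh1 (6.83 to 20.6 CPM) were present in all 10 tumors. Krt5 and Krt14 reached 28.9 and 54.2 CPM in NE5 and at most 0.197 and 0.622 CPM in the other tumors. The epithelial sum was 131 CPM in NE5 and 19.7 to 32.1 CPM in the other tumors.

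Promoter windows show what members of the sterol group have in common apart from expression. RefSeq windows on GRCm38.p6, 250 bases before to 50 after each start site, were found for 24 of the 32 genes in 30 windows. None was found for Fdps, Fdft1, Sqle, Stard4, Scd1, Scd2, Fads1 or Abcg1. The only Acaca window lies inside the gene, from position 84195188 of chromosome 11, whereas the gene starts at 84129672 in GENCODE. The letters CCAAT on either strand, the core bound by NF-Y, a factor known to work beside SREBPs, stood in 15 of 16 sterol genes (93.8%), in 1 of 4 fatty acid genes (25%) and in 11096 of 27025 genes of the whole table (41.1%). The sterol regulatory letters TCACNCCAC, on either strand, stood in Hmgcs1 alone among the members and in 1.44% of all genes. The E-box CACGTG, which SREBP1 and many other factors can bind, stood in 4 of 16 sterol genes, none of 4 fatty acid genes and 8.09% of all genes. The LXR-type DR4 repeat, a pair of AGGTCA with 4 bases between them, on either strand, was in no member window and in 0.0148% of all genes. These are matches of letters, and no match says only that the letters are not in that window.

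The 250 bases before the start site are shown for 5 genes: Hmgcs1 for its sterol regulatory letters, Mvk and Msmo1 for their repeated CCAAT, Insig1 for its E-box, and Fasn as the fatty acid gene with CCAAT. Capitals mark every match of the 4 letter patterns, and ATTGG is CCAAT read on the other strand.
Hmgcs1, chr13:119690101-119690350, plus strand: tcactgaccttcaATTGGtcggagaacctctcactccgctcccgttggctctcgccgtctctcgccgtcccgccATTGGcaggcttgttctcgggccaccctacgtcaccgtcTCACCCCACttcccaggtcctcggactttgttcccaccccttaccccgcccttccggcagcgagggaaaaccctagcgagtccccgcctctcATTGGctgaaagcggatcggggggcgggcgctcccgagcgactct
Mvk, chr5:114444019-114444268, plus strand: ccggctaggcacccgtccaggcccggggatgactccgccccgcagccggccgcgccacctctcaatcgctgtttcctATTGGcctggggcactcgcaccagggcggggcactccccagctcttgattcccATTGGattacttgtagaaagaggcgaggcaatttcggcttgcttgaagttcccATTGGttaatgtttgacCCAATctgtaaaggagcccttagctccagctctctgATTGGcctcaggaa
Msmo1, chr8:64733579-64733828, minus strand: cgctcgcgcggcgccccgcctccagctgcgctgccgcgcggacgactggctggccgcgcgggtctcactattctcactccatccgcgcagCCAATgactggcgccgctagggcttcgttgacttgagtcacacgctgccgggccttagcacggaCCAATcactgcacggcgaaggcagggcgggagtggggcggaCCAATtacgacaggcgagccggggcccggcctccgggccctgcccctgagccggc
Insig1, chr5:28071162-28071411, plus strand: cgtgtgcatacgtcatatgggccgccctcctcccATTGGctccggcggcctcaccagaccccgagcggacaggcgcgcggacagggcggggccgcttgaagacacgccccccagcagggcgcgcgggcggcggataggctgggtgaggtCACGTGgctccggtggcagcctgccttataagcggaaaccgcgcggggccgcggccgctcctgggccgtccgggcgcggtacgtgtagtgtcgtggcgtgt
Fasn, chr11:120824548-120824797, minus strand: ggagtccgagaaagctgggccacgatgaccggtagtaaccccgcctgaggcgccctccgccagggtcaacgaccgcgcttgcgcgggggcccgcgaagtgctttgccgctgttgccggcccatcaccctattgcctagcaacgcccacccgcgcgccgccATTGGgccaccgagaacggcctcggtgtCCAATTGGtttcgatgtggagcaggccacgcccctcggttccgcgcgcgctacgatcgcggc
In Hmgcs1 the sterol regulatory letters began 137 bases before the start site, with CCAAT on the minus strand at 237, 176 and 45 bases. Mvk held 5 CCAAT matches, of which 4 were on the minus strand, and the 3 of Msmo1 were all on the plus strand. In Insig1 the E-box began 101 bases before the start site and the only CCAAT match began 216 bases before it. In Fasn the CCAAT matches at 62 and 59 bases lay on opposite strands and overlapped.

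Per length, Scd2 and Scd1 stood far above every other member. Scd2, the stearoyl-CoA desaturase that is widely expressed outside the liver, averaged 236.5 ± 39.8 FPKM (SD, n = 10) and Scd1, its close relative, 78.1 ± 12.6 FPKM. The next were Cyp51 (lanosterol demethylase, 37.4 ± 7.28 FPKM), Insig1 (34.4 ± 8.21 FPKM), Fdft1 (squalene synthase, 33.8 ± 4.13 FPKM), Fads1 (delta-5 desaturase, 28.7 ± 3.18 FPKM) and Sqle (squalene epoxidase, 26.0 ± 3.99 FPKM). Srebf2 (25.5 ± 2.46 FPKM) stood above Srebf1 (18.6 ± 2.50 FPKM). Fads2 (1.78 ± 0.925 FPKM), Tm7sf2 (0.714 ± 0.138 FPKM) and Fdps (0.681 ± 0.243 FPKM) were at the bottom. Between neighbours in this order the ranges over tumors did not overlap at only 3 places, Scd2 above Scd1, Scd1 above Cyp51 and Lss above Fads2. The other 28 pairs of neighbours overlapped. The order also depends on the length taken for each gene. For Fdps, Tm7sf2, Cyp51 and Srebf1 it equalled the exon bases of all annotated transcripts together, and for Fdft1 it did not (4116 against 4227 bases). Lss and Acat2 had similar CPM, but lengths of 10787 and 2544 bases gave them 5.34 and 23.6 FPKM.

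Fdps, farnesyl diphosphate synthase, rests on few reads and shares exon bases with another annotated gene. In the GENCODE annotation of GRCm38, exons of Gm43738, a protein-coding gene on the same strand, cover 1124 of 4208 exon bases of Fdps (26.7%), and Gm43738 had 0 to 1 reads in every tumor. Exons of Vps51, on the same strand as Tm7sf2, cover 12.1% of the exon bases of Tm7sf2, and Vps51 had 406 to 611 reads. How reads in the shared exons were counted is not stated for either gene, and the part of the overlaps in their low levels was not tested. Stretches of 50 bases shared with another gene were also common in Acat2 (39.1%, mostly with Acat3), Acaca (30.4%, mostly with the pseudogene Gm5182) and Idi1 (17.7%, all with the pseudogene Gm13502). Fdft1 overlaps Ctsb on the opposite strand over 18.3% of its exon bases, and Ctsb had 34532 to 48645 reads. Strand use was not stated, so reads in such overlaps cannot be told apart.

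**Figure D1:**
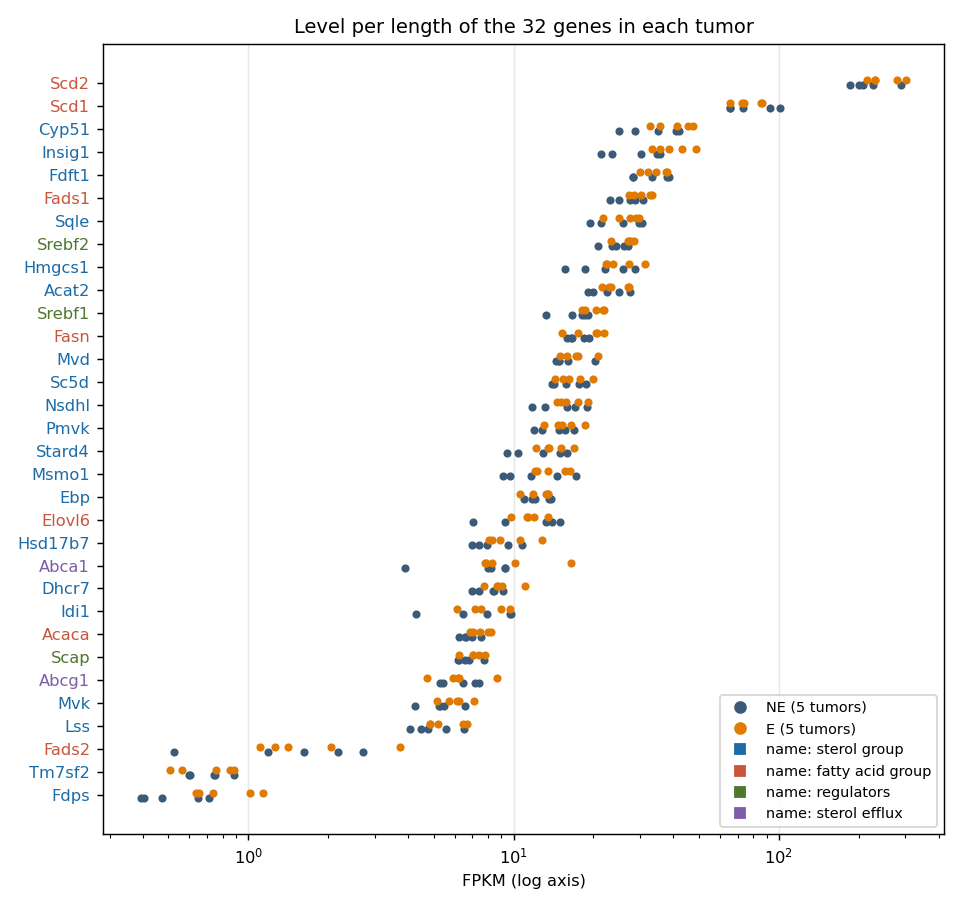
Level per length of each of the 32 genes in 10 tumors, as FPKM on a log axis, with genes in order of their mean and names colored by group. Blue points are NE tumors and orange points E tumors; Scd2 and Scd1 stand apart at the top and Fads2, Tm7sf2 and Fdps at the bottom.

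The comparison of E with NE asks whether running changed the tumors' expression of these genes. With edgeR's quasi-likelihood test no member passed both thresholds, an FDR no larger than 0.05 and a 2-fold change, and neither did any other of the 13517 genes tested (0%), whose smallest FDR was 0.897. With DESeq2, 2 genes outside the list had an FDR below 0.05, at less than a 2-fold change, and the smallest FDR of a member was 0.852. Before adjustment, 3 members had a p no larger than 0.05 (also 3 with DESeq2), namely Insig1, Fdps and Srebf1, all higher in E, against 4.86% of all genes at that p and 2.57% at that p and higher in E. The 95% intervals of 30 members lay within a 2-fold change in either direction, and those of Fdps and Fads2 did not. The fitted value was above 0 for 27 of 32 members (18 of 20 sterol genes, 5 of 7 fatty acid genes, 3 of 3 regulators and 1 of 2 exporters), against 46% of all genes. The median log2 fold change was 0.11 over the members and -0.01 over all genes. These counts of signs are not counts of separate observations. The sterol genes varied together across tumors (median r of 0.77 over their pairs), and NE1 was the lowest tumor for 13 of 20.

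That lean toward E was small and changed with the weighting of single tumors. With limma-voom and sample quality weights, 16 of 32 members and 7 of 20 sterol genes were above 0, and the median of the sterol group was -0.02. The weights ran from 0.299 in NE4 and 0.301 in NE1 to 2.33 in NE2, and limma-voom without them, added after seeing the data, gave 28 of 32. Leaving out NE1 gave 22 of 32 and a covariate for read total gave 20 of 32. Counts of members at an unadjusted p of at most 0.05 were 0 with weighted limma-voom, with that covariate and without E3, 1 without E5, without NE2 or without NE4, and 6 without NE5.

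**Figure D2:**
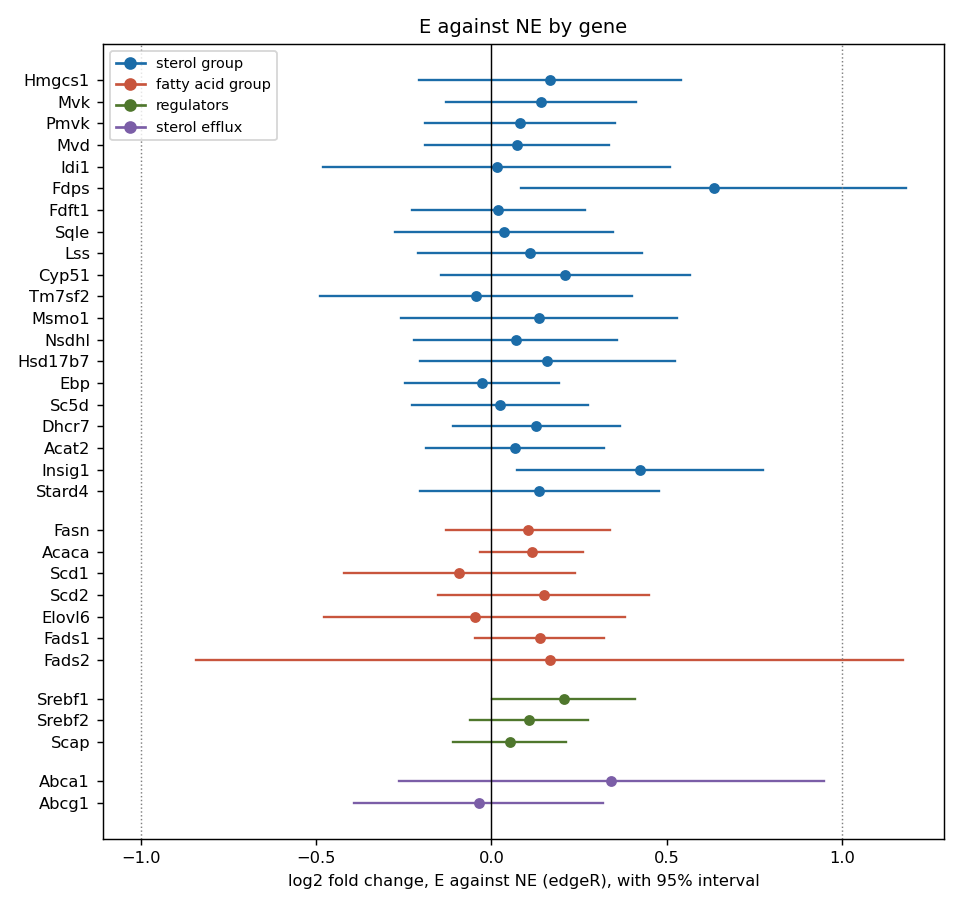
Log2 fold change of E against NE for each of the 32 genes by edgeR's quasi-likelihood fit, with 95% intervals as bars and colors for the 4 groups; positive values are higher in E. Most points lie just right of 0, only the intervals of Insig1, Fdps and Srebf1 exclude 0, and none of the 32 genes passed an FDR of 0.05.

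In the early sterol pathway, Hmgcs1, the cytosolic HMG-CoA synthase that commits acetyl-CoA to mevalonate, measured 102, 101, 145, 107 and 122 CPM in E1 to E5 and 70.3, 102, 119, 89.5 and 134 CPM in NE1 to NE5. NE1 was lowest and E3 highest, and the groups overlapped (log2 fold change 0.17, SE 0.169, unadjusted p = 0.344 by edgeR). Idi1, the isomerase that turns one isoprenoid unit into the other, measured 21.3, 25.9, 34.4, 24.8 and 30.8 CPM in E and 14.7, 28.1, 34.2, 23.8 and 35.0 CPM in NE. NE1 was again lowest and NE5 highest, and the group means did not differ beyond their spread (0.02, SE 0.223). The mevalonate kinases and decarboxylase Mvk, Pmvk and Mvd had log2 fold changes of 0.14, 0.08 and 0.07, with highest tumors 1.54, 1.55 and 1.42 times the lowest.

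Fdps, which joins isoprenoid units into the precursor of squalene and of prenyl groups, measured 2.63, 3.04, 4.33, 2.72 and 4.69 CPM in E and 1.95, 1.67, 2.73, 1.79 and 3.04 CPM in NE. E5 and E3 were highest, E was higher in 21 of the 25 pairs of an E and an NE tumor, and the groups overlapped. The log2 fold change was 0.63 (SE 0.248, unadjusted p = 0.0276, FDR 0.897 by edgeR), on the few reads described above. Leaving out single tumors gave 0.51 to 0.77, with an unadjusted p above 0.05 in 5 of 10 cases. Acat2, the cytosolic acetoacetyl-CoA thiolase before Hmgcs1, had a log2 fold change of 0.07 (SE 0.115).

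From squalene onward, Sqle, a rate-controlling step of the late pathway, measured 151, 136, 167, 119 and 157 CPM in E and 105, 145, 165, 124 and 172 CPM in NE, so that both the lowest and the highest tumor were NE (0.04, SE 0.140). Cyp51 measured 143, 178, 204, 156 and 205 CPM in E and 108, 156, 180.4, 133 and 188 CPM in NE. Its lowest tumors were NE1 and NE4 and its highest E5 and E3, with overlap (0.21, SE 0.160, unadjusted p = 0.215 by edgeR). Fdft1 (0.02) and Lss (0.11), the squalene synthase and the lanosterol synthase on either side of Sqle, did not differ beyond their standard errors of 0.111 and 0.144.

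The enzymes that trim lanosterol to cholesterol gave values in the same range. Msmo1 and Nsdhl, which remove the methyl groups at carbon 4, had log2 fold changes of 0.14 (SE 0.177) and 0.07 (SE 0.131), and Hsd17b7, which acts with them, 0.16 (SE 0.164). Sc5d and Dhcr7, a desaturase and a reductase near the end of the pathway, had 0.03 (SE 0.113) and 0.13 (SE 0.107). Only the sterol reductase Tm7sf2 (-0.04, SE 0.201) and the isomerase Ebp (-0.03, SE 0.0994) were below 0. Stard4, a carrier that moves cholesterol between membranes, had 0.14 (SE 0.154).

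Insig1, itself a target of the SREBPs and a brake on them, had the smallest p of the 32 genes. It measured 109, 116, 152, 101 and 131 CPM in E and 71.3, 94.1, 110.1, 69.7 and 109 CPM in NE, a mean of 122 ± 20.2 against 90.9 ± 19.7 CPM (SD, n = 5 each). E was higher in 21 of 25 pairs, and the groups overlapped because NE3 and NE5 stood above E1 and E4. The log2 fold change was 0.42 (SE 0.159, 95% interval 0.07 to 0.78, unadjusted p = 0.0225, FDR 0.897 by edgeR). Without E3 it was 0.33 at an unadjusted p of 0.0605, and with each other tumor left out the p stayed at or below 0.0473.

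Set against its own group, Insig1 separated the tumors more clearly. Its log2(CPM + 1) minus the mean of the other 19 sterol genes was 1.40, 1.47, 1.61, 1.34 and 1.40 in E1 to E5 and 1.10, 1.21, 1.27, 0.89 and 1.14 in NE1 to NE5. Every E tumor stood above every NE tumor, with means of 1.44 ± 0.106 and 1.12 ± 0.146 (SD, n = 5 each). This measure was chosen after its values were seen and is given with no test. On plain CPM, on which Insig1 itself overlapped, the groups did not overlap for 0.725% of all genes and for none of the 32 members. No such share over all genes was computed for the difference from the other 19 sterol genes. On that difference Fdps was higher in E in 24 of 25 pairs and Cyp51 in 20. Fdft1 was higher in E in only 3 pairs, Sc5d in 4 and Acat2 in 5.

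**Figure D3:**
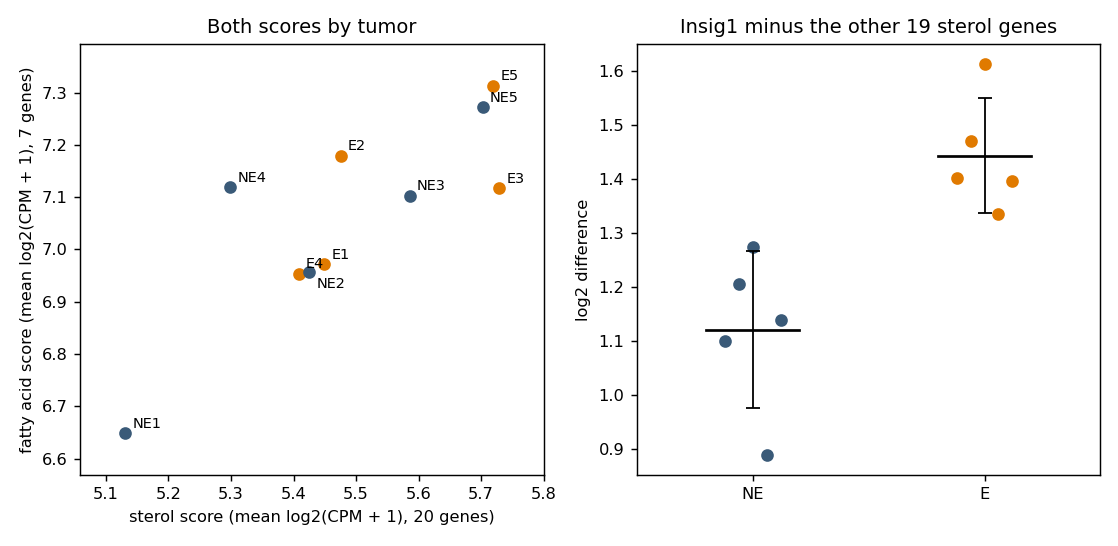
Left, fatty acid score against sterol score of the 10 tumors, each the mean log2(CPM + 1) over its 7 or 20 genes, with E in orange and NE in blue; NE1 is lowest on both axes and NE4 lies above the other tumors of its sterol score. Right, Insig1 minus the mean of the other 19 sterol genes on the log2 scale by group, with the mean as a line and the SD as a bar (n = 5 each); the lowest E tumor is at 1.34 and the highest NE tumor at 1.27.

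The sterol genes moved together across tumors. Over all 190 pairs of sterol genes the median Pearson r of log2(CPM + 1) across the 10 tumors was 0.77, and 78.9% of pairs were above 0.5, against a median of -0.004 and 14.1% over all pairs of tested genes. These correlations are descriptions over tumors that differ in tissue content and depth, and the part of those differences was not tested. NE1 was the lowest tumor for 13 of the 20 genes, and NE5 was the highest for 8, E3 for 5 and E5 for 5. Each of Msmo1, Hmgcs1, Cyp51, Acat2 and Stard4 had an r of 0.95 to 0.97 with the mean of the other 19.

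Tm7sf2 and Ebp did not follow the group, with r of -0.48 and -0.24 against the mean of the others. Tm7sf2 was lowest in E3, at 2.26 CPM, where most sterol genes were high, and highest in NE2, at 3.94 CPM, on 46 to 80 reads. Ebp varied little, from 24.8 CPM in E3 to 33.8 CPM in NE4. Its r was 0.82 with the skeletal muscle score, 0.76 with the T cell score, 0.73 with the adipocyte score and 0.57 with the macrophage score. A marker score is the mean log2(CPM + 1) of the listed markers.

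**Figure D4:**
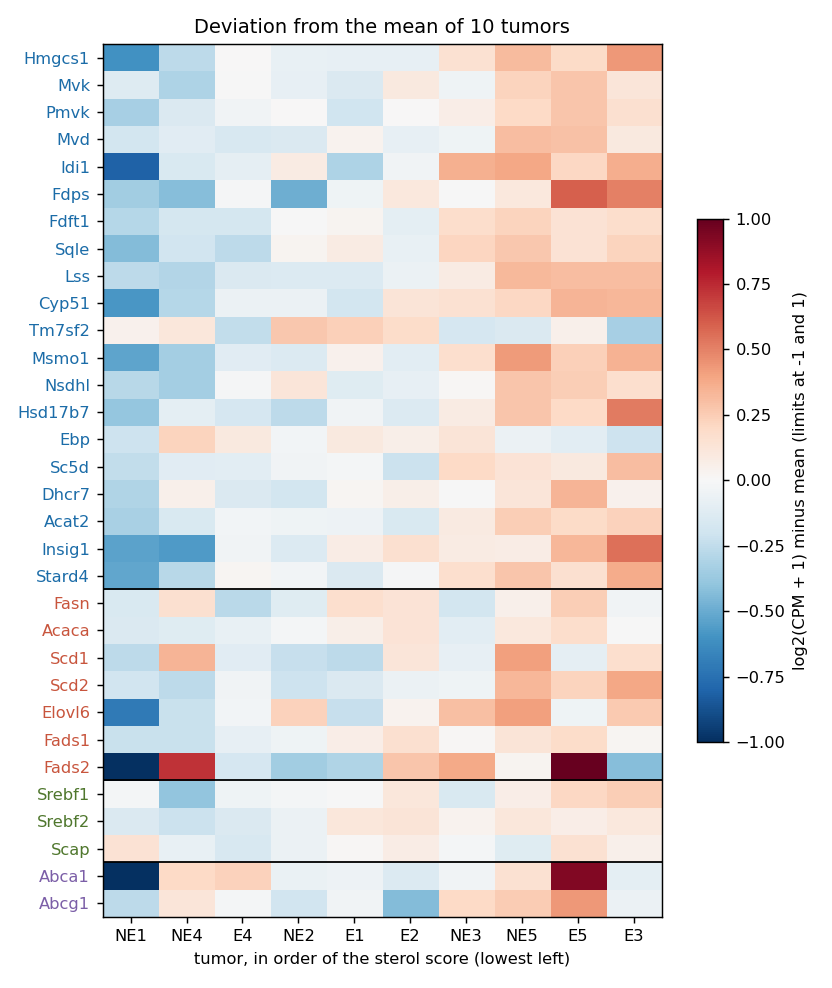
Deviation of log2(CPM + 1) from the mean of the 10 tumors for each of the 32 genes, with tumors in order of the sterol score from NE1 to E3 and gene names colored by group. Red is above and blue below the mean; values beyond -1 and 1 (Fads2 and Abca1) take the end colors. Most sterol genes change from blue to red together, while Tm7sf2 and Ebp do not.

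Fasn, the fatty acid synthase that builds palmitate, measured 223, 218, 194, 165 and 236 CPM in E and 179, 182, 174, 223 and 206 CPM in NE. The lowest and the highest tumor were both E, and the difference was within the spread (0.10, SE 0.106). Acaca, the acetyl-CoA carboxylase that supplies malonyl-CoA to it, had a log2 fold change of 0.12 (SE 0.0666, unadjusted p = 0.113 by edgeR), and E was higher in 21 of 25 pairs. Elovl6, which lengthens palmitate to stearate, measured 62.4, 75.2, 88.0, 72.0 and 70.9 CPM in E and 44.5, 86.0, 90.3, 62.6 and 97.7 CPM in NE. Its NE tumors spanned the whole range, with NE1 lowest and NE5 highest (-0.05, SE 0.194).

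Scd1 and Scd2, which place the first double bond in stearate, did not follow each other closely (r = 0.44). Scd1 measured 315, 412, 424, 350.4 and 355 CPM in E and 315, 323, 358, 478 and 503 CPM in NE, with the highest values in NE5 and NE4. Scd2 measured 1158, 1229, 1672, 1249 and 1489.8 CPM in E and 1116, 1103, 1239, 1064 and 1608 CPM in NE, with its lowest value in NE4. In log2(CPM + 1), Scd1 minus Scd2 was -1.15 in NE4 and -2.07 to -1.58 in the other 9 tumors.

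NE4 and NE5, the tumors with high Scd1, also stood apart for markers of other tissues. NE4 had the highest adipocyte sum (116 CPM without Car3), and NE5 had the highest sums for sebaceous gland (40.0 CPM against 2.12 to 4.45 CPM in the rest) and keratinocyte markers. Scd3, the desaturase of sebaceous glands, had 59 reads in NE5 and 0 to 7 in the other tumors. Across tumors the r of Scd1 was 0.64 with the adipocyte score (0.69 without Car3) and 0.65 with the sebaceous score, against -0.29 and 0.45 for Scd2. With the keratinocyte and epithelial scores the r of Scd1 was 0.62 and 0.63, against 0.55 and 0.36 for Scd2. The sebaceous score was 2.47 in NE5 and 0.35 to 0.65 in the other tumors, so its r leans on 1 tumor. The fitted log2 fold change of Scd1 was -0.09 (SE 0.148) with all tumors and 0.16 with NE4 and NE5 left out together, an alternative added after seeing the data. The part of those tissues in the Scd1 values was not tested.

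Fads1 and Fads2, neighbouring genes for the desaturases of polyunsaturated fatty acids, differed in level and in spread. Fads1 kept within 117 to 157 CPM (0.14, SE 0.0826). Fads2 measured 4.12, 6.61, 3.69, 4.58 and 12.05 CPM in E and 1.70, 3.94, 7.19, 9.36 and 5.42 CPM in NE, so that E5 was 7.09 times NE1, the widest span of the 32 genes. Its log2 fold change was 0.17 with an SE of 0.456, and its r was 0.88 with the macrophage score and 0.88 with the fibroblast score. The summed macrophage markers were highest in E5 (2374 CPM) and lowest in NE1 (639 CPM), and the fibroblast sums were too (16230.0 and 1047 CPM). Their part in the Fads2 values was not tested.

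**Figure D5:**
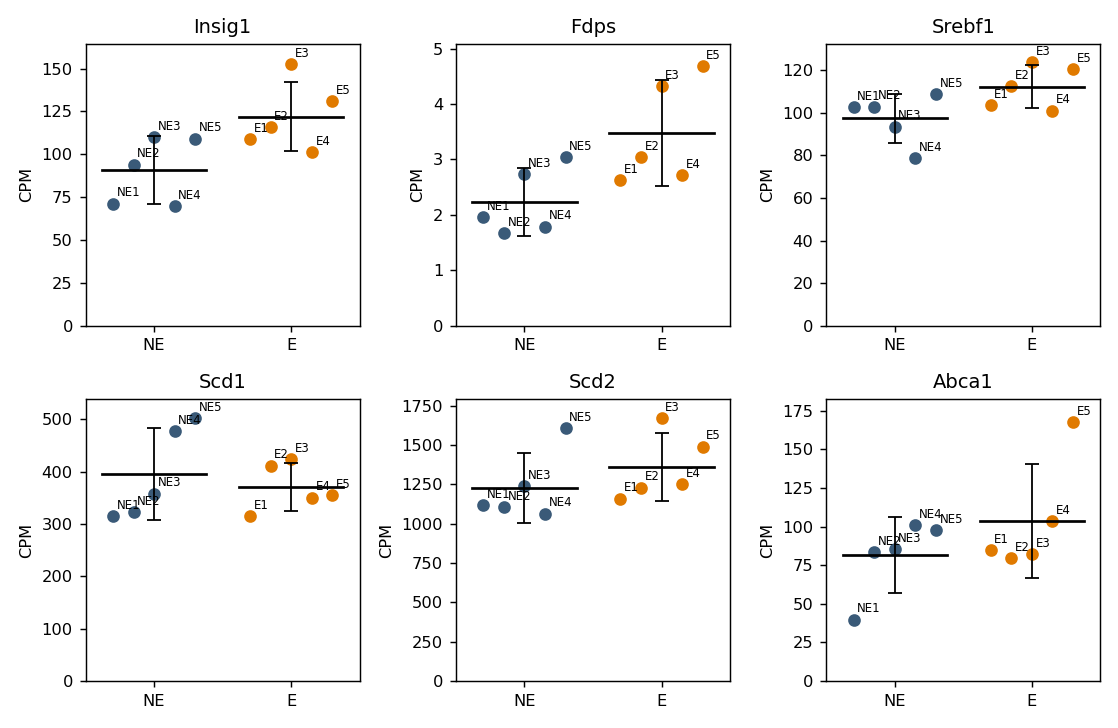
CPM of Insig1, Fdps, Srebf1, Scd1, Scd2 and Abca1 in each of the 5 NE (blue) and 5 E (orange) tumors, with the mean as a line and the SD as a bar; axes start at 0. In all 6 panels the groups overlap, Scd1 is highest in NE5 and NE4, and Abca1 has a high point at E5 (168 CPM) and a low one at NE1 (39.7 CPM).

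Compared as groups, sterol and fatty acid genes both differed between E and NE by less than the spread between tumors. The sterol score, the mean log2(CPM + 1) of its 20 genes, was 5.45, 5.48, 5.73, 5.41 and 5.72 in E1 to E5 and 5.13, 5.43, 5.59, 5.30 and 5.70 in NE1 to NE5, a difference of 0.13 between means of 5.56 ± 0.155 and 5.43 ± 0.227 (SD, n = 5 each). The fatty acid score was 6.97, 7.18, 7.12, 6.95 and 7.31 in E and 6.65, 6.96, 7.10, 7.12 and 7.27 in NE, a difference of 0.09 between 7.11 ± 0.149 and 7.02 ± 0.236. E was higher in 18 of 25 pairs for the first and 15 of 25 for the second, both differences were smaller than the SD within either group, and each score was lowest in NE1. Without NE1 the differences were 0.05 for the sterol score and -0.01 for the fatty acid score.

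The sterol score minus the fatty acid score was -1.52, -1.70, -1.39, -1.55 and -1.59 in E and -1.52, -1.53, -1.52, -1.82 and -1.57 in NE. The difference between the groups was 0.04, against SDs of 0.115 and 0.129, and E was higher in 12 of 25 pairs. Without E3 and without NE4, each left out alone, the difference was close to 0 or below it, at -0.00029 and -0.02. Across the 10 tumors the scores had a Pearson r of 0.82 and a Spearman rho of 0.67, and r was 0.73 without E3 and NE1. NE4 had the largest excess of fatty acid over sterol genes, and across tumors the r of the score difference was -0.77 with the adipocyte score and -0.68 with the muscle score.

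The fatty acid genes were a looser set, and some of them ran with the sterol genes. The median r over their 21 pairs was 0.43, and over the 140 pairs of a sterol with a fatty acid gene it was 0.50. Scd2 (median r of 0.80 with the 20 sterol genes), Elovl6 (0.74) and Fads1 (0.71) varied much as the sterol genes did. For Acaca the median was 0.57, and for Scd1 (0.36), Fads2 (0.36) and Fasn (0.21) it was lower. The fatty acid score also had a higher r with fibroblast (0.83) and macrophage (0.78) scores than the sterol score had (0.56 and 0.53), with no test of that difference.

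Among the regulators, Srebf1 measured 104, 113, 124, 101 and 121 CPM in E and 103, 103, 93.6, 78.9 and 109 CPM in NE. E was higher in 21 of 25 pairs, NE4 was the lowest tumor, and the groups overlapped, with a log2 fold change of 0.21 (SE 0.0925, unadjusted p = 0.0491, FDR 0.897 by edgeR). With single tumors left out in turn the log2 fold change was 0.14 to 0.25, and the unadjusted p was above 0.05 in 6 of 10 cases, reaching 0.114 without E3. Srebf2 measured 197, 199.9, 197, 166 and 192 CPM in E and 166, 176, 187, 157 and 198 CPM in NE, with E4 apart from the other E tumors (0.11, SE 0.0766). Scap kept within 45.7 to 56.9 CPM (0.05, SE 0.0729).

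The transcript of Srebf2 had an r of 0.75 with the sterol score and 0.55 with the fatty acid score, and that of Srebf1 had 0.59 and 0.25. Scap had an r near 0 with both (-0.03 and -0.11). The message of Srebf1 had an r of -0.65 with the adipocyte score. The counts are per gene, so the starts of Srebf1, of which RefSeq windows give several, were not told apart.

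Of the sterol exporters, Abca1, which loads cholesterol onto apolipoprotein A-I, measured 84.6, 79.7, 82.1, 103 and 168 CPM in E and 39.7, 83.6, 85.5, 101 and 97.8 CPM in NE. E5 was far above the other E tumors and NE1 far below the other NE tumors, and the remaining 8 tumors overlapped fully (0.34, SE 0.274, unadjusted p = 0.238 by edgeR). Abcg1, which exports cholesterol to HDL, measured 44.4, 33.6, 43.8, 44.9 and 61.9 CPM in E and 37.8, 39.7, 52.5, 49.6 and 54.7 CPM in NE, with the lowest and the highest value both in E (-0.04, SE 0.161). The r of Abca1 was 0.96 with the fibroblast score and 0.91 with the macrophage score, whose sums were highest in E5 and lowest in NE1 as Abca1 was. Their part in the Abca1 values was not tested.

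Of 50 further genes of lipid synthesis, uptake, storage and sterol handling, 45 were tested. Values were above 0 for 27 of them (60%), against 46% of all genes, and below 0 for 18. By edgeR, 4 had an unadjusted p of at most 0.05, all higher in E. Over all genes 4.86% had such a p, and 2.57% had it and were higher in E. Acss2, an acetyl-CoA synthetase and SREBP target, measured 14.8, 16.2, 15.4, 17.5 and 15.2 CPM in E and 12.6, 13.4, 14.5, 14.3 and 14.4 CPM in NE. Every E tumor was above every NE tumor by a small margin (log2 fold change 0.19, SE 0.0823, unadjusted p = 0.0400, FDR 0.897 by edgeR). CPM of the groups did not overlap for 1 of the 45 genes and for 0.725% of all genes. Mylip, an LXR target that marks lipoprotein receptors for breakdown (0.40, SE 0.170), and Ch25h, which makes 25-hydroxycholesterol (0.60, SE 0.212), were the others named here. The log2 fold changes of the remaining genes ran from -1.61 to 1.33 with no FDR below 0.897.

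Outside the members, the genes most like the sterol score over the 10 tumors were Prdm1 (r = 0.94), Itprid2 (0.91), Jarid2 (0.91) and Atp6v1a (0.91). Jarid2 (0.93), Galnt6 (0.93), Gpr141b (0.92) and Slc9a7 (0.91) were most like the fatty acid score. Each is the top of a ranking over 13517 genes and 10 tumors, which puts high values at its head.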

How the data were processed

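The authors deposited 1 table with a raw read count and an FPKM for each of 21959 genes in 10 tumors. Per the paper's methods, reads of TruSeq libraries were aligned with Hisat2 and FPKM were made with Stringtie. The methods name a rat genome as the reference, whereas all 21959 gene identifiers are mouse Ensembl IDs, so the build behind the counts is uncertain. The counting tool is not given in the sources used here. The deposited FPKM were the counts divided by gene length and library total (they differed by at most 3.78e-14 of the value), with no TMM scaling. No pair of libraries looked like a duplicate: over 45 pairs the chi-square divided by its degrees of freedom was at least 8.85.

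Groups and replicate numbers came from the sample labels. Counts were tested with edgeR 4.0.16 under R 4.3.3, using filterByExpr, TMM factors and the quasi-likelihood F-test, with Benjamini-Hochberg adjustment over 13517 genes. Positive values are higher in E, and the thresholds were the study's, a 2-fold change and an FDR of 0.05. The code was tested on simulated data. In the shallowest tumor, 3 reads are 0.199 CPM, and intervals cover the spread between tumors. Scores are means of log2(CPM + 1) and have no p-value. Alternatives were DESeq2 1.42.0, limma-voom 3.58.1, other scaling, no filter, a replicate block, covariates, other thresholds and leaving out each tumor. Promoter windows were from RefSeq (GRCm38.p6), and overlaps and shared stretches of 50 bases from GENCODE on GRCm38.

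All 32 members are named. Per-tumor values are given for 14 set genes and the 3 with the smallest unadjusted p, of the further pathway genes those with an unadjusted p of at most 0.05 are named, and so are the 5 genes most like each score. From these rules 3 genes are not reported here. Members, marker lists and rules were chosen with earlier results of these data known. Adipocyte, sebaceous gland, keratinocyte, muscle, macrophage, neutrophil, fibroblast, endothelial, T cell, epithelial and cycling markers were summed. Endothelial sums were 107 to 195 CPM, T cell sums 46.6 to 108 CPM, neutrophil sums 84.9 to 565 CPM and cycling sums 1014 to 1413 CPM.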

Additional observations from a re-analysis of the deposited data

Results flagged for a closer look

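Of 70 groups of 5 tumors examined (32 genes and 3 scores in each group), 5 had 1 tumor far from the others by Dixon's criterion, where chance gives about 3.5. Mvd was 38.3 CPM in NE5 against 27.0 to 29.8 CPM in the other NE tumors. Srebf2 was 165.7 CPM in E4, below the other E tumors. Abca1 was 167.5 CPM in E5, above the other E tumors, and 39.7 CPM in NE1, below the other NE tumors. The sterol score minus the fatty acid score was -1.82 in NE4, below the other NE tumors. NE5 was also highest for keratinocyte markers, NE4 for adipocyte and muscle markers, and NE1 lowest and E5 highest for fibroblast and macrophage markers, and the part of these tissues was not tested.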

How the results depend on the processing

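With both thresholds, no gene and no member was called in any alternative run. DESeq2 alone gave genes below the FDR threshold, 2 genes that are not members (Ide and Rbm12b1, named after their values were seen), with a smallest FDR of 0.00045 and less than a 2-fold change. Over the other alternatives the smallest FDR was 0.0648, with the muscle score as covariate. On the edgeR fit with all tumors, counting an unadjusted p of at most 0.05 in place of the thresholds gave 657 genes and 3 members. DESeq2 also gave 3 members at that unadjusted p. Of the 32 fitted fold changes, 12 kept their sign in every alternative. In log2 units, the sign turned with limma-voom and sample weights for Hmgcs1 (-0.019), Pmvk (-0.028), Mvd (-0.021), Idi1 (-0.19), Fdft1 (-0.12), Sqle (-0.15), Lss (-0.030), Msmo1 (-0.059), Nsdhl (-0.088), Ebp (0.0081), Sc5d (-0.13), Acat2 (-0.071) and Stard4 (-0.024). With the read total as covariate it turned for Pmvk (-0.066), Mvd (-0.017), Idi1 (-0.11), Fdft1 (-0.025), Sqle (-0.0068), Nsdhl (-0.092), Ebp (0.017), Fads2 (-0.47) and Abca1 (-0.12). It turned for Ebp without TMM (0.0090) and with the adipocyte score as covariate (0.018). After seeing the data, limma-voom without weights was added, which turned Elovl6 (0.0052), and so was leaving out NE4 and NE5 together, which turned Ebp (0.020), Scd1 (0.16), Elovl6 (0.0059), Scap (-0.0061) and Abcg1 (0.073). Leaving out single tumors gave values on both sides of 0 for Idi1 (-0.13 to 0.12), Fdft1 (-0.030 to 0.084), Sqle (-0.042 to 0.11), Tm7sf2 (-0.13 to 0.050), Ebp (-0.066 to 0.035), Sc5d (-0.056 to 0.082), Scd1 (-0.16 to 0.011), Elovl6 (-0.18 to 0.058), Fads2 (-0.22 to 0.45) and Abcg1 (-0.17 to 0.057). The cause of each turn was not tested. Score differences moved by less than 1 SD in every alternative, and leaving out single tumors gave 0.05 to 0.20 for the sterol score, -0.0058 to 0.15 for the fatty acid score and -0.02 to 0.08 for their difference.

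The labels number the tumors 1 to 5 in both groups, and the study speaks of matched pairs without saying how they were matched. The main fit had no block, because the methods describe none. Over all tested genes, deviations of same-numbered tumors from their group means had correlations of 0.04, -0.16, -0.09, -0.32 and 0.32. Correlations over all genes cannot decide whether the members vary by number. The sterol score was higher in E than in NE at every number. The fatty acid score was too, except for E4 against NE4. With the replicate number as a block in edgeR, 0 genes and 0 members were called. In that fit 714 genes and 6 members had an unadjusted p of at most 0.05 (Insig1, Fdps, Srebf1, Cyp51, Acaca and Fads1). The unadjusted p by edgeR with the block was 0.00046 for Insig1, 0.0061 for Fdps and 0.0063 for Cyp51, each at an FDR of 0.871. There 27 members were above 0, and score differences were 0.13 for sterol, 0.09 for fatty acid and 0.04 between them. Depth limits Fdps, Tm7sf2 and Fads2, which rest on few reads.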
